A study of Mus musculus with 2 samples.

Results

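The nuclear genes for the subunits of the mitochondrial respiratory chain and ATP synthase were compared between activated T cells with and without triptolide. Members were chosen by symbol alone: Nduf and Uqcr genes, Cyc1, Cox4 to Cox8 genes and Atp5 genes, each through probe sets annotated to exactly 1 gene. The rule found 87 of the 18193 genes on the array, with 171 probe sets. By complex they were 36 subunit genes of complex I, 8 Ndufaf assembly factors of complex I, 9 genes of complex III, 17 of complex IV and 17 of ATP synthase. In one sample, mouse primary T cells received both triptolide at 50 ng/ml and anti-CD3/CD28 antibodies, which engage the T cell receptor and its costimulator. The other sample, called stimulated, received the antibodies and no triptolide, so no unstimulated cells enter any comparison. Each condition was 1 Affymetrix array from purified cells cultured for 18 h. The sources used here do not give strain, age, sex, number of animals or the length of the triptolide exposure.

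Oxidative phosphorylation passes electrons from NADH and succinate through complexes I to IV to oxygen, pumps protons across the inner mitochondrial membrane, and uses that gradient to make ATP in ATP synthase. A few core subunits are encoded in mitochondrial DNA, while all others are nuclear genes whose promoters often carry sites for NRF1, the ETS factor GABP and YY1. T cells raise both glycolysis and respiration when they are activated. Triptolide is a plant compound that binds a subunit of the transcription factor TFIIH and reduces transcription by RNA polymerase II.

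With 1 array per condition there was no test between them, and every difference below is a value of these 2 arrays with no replicate check. Values are MAS5 signals, and ratios are triptolide over stimulated on the log2 scale. Both arrays had the same 2% trimmed mean of 2000 over 100 probe sets, so the ratios are relative. A change in mRNA per cell shared by all genes would not show in them. A probe set counted as detected above a background floor of 118 on at least 1 array, set from chemosensory receptor probe sets, and as measured above it on both. Where a gene had several probe sets, the strongest by mean log2 signal stood for it, and signals of different genes are not comparable as levels. A difference of at least 2-fold was taken as the limit for counting. All 10968 detected genes had a median log2 ratio of -0.16, so members are also given against that value. A list of 9 housekeeping genes had a median of 0.19 instead, so positive ratios smaller than that turn negative if the arrays are scaled on it. These 9 genes spread widely, from -0.92 for Eef2 to 0.61 for Gusb (SD 0.53), with 5 above 0 and 4 below. The scaling is therefore a rough alternative. In bulk samples, fewer cells of a type and less RNA per cell cannot be told apart.

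T cell markers were present on both arrays: all 9 with probe sets of their own were detected, from 1584 to 10065 in triptolide cells and from 2477 to 14194 in stimulated cells. Their summed signals were 40706 with triptolide and 54292 without. Of B cell markers 7 of 8 were detected, with sums of 7823 with triptolide and 8094 without, and Pax5 lay under the floor. These near-equal sums hide opposite differences, since 2 of the 7 had log2 ratios above 0 and 5 below (median -0.71). Cd74 had 4385 with triptolide and 2190 without, while Ighm had 1805 with triptolide and 3482 without. Of myeloid markers 6 of 9 were detected, with sums of 7114 with triptolide and 5362 without, mostly from Ctss, while Itgam, Cd14 and Fcgr1 lay under the floor. Among 6 erythroid and platelet markers, Gp5 and Itga2b were detected, with a sum of 1268.5 with triptolide and 486.5 without. The part of other cells in the ratios below was not tested.

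Most respiratory chain genes differed little between the arrays in relative signal. Of the 82 detected members, all measured on both arrays, 75 lay within 2-fold (91.5%, against 81.9% of all detected genes). Triptolide cells had 2 members higher by that limit and 5 lower. That is 2.44% higher and 6.10% lower, against 5.63% and 12.5% of all detected genes. The split of all genes depended on scaling, with 8.13% higher and 8.49% lower after quantile normalization (members: 4 and 4) and 3.85% higher and 17.2% lower with housekeeping genes (members: 1 and 6). Many members have strong signals, and among all genes averaging at least 4 times the floor the shares were 5.18% and 13%. For the 73 members in that set they were 1.37% and 4.11%. The set does not match signal strength, with a median mean signal of 1199 for all its genes and 5631 for its members. Whether signal strength plays a part in the share within 2-fold was not tested. Among the 82 detected members, the 2 higher genes were Cox6b2 and Atp5j, and the 5 lower ones Ndufb2, Ndufaf5, Ndufs8, Atp5c1 and Ndufaf3. The median log2 ratio over the 82 genes was 0.05, with quartiles of -0.33 and 0.33. It lay 0.21 above the median of all detected genes, and 0.14 to 0.27 above it in 10 alternative treatments of the data. Not all 10 could have moved that difference, since scaling an array by a constant can hardly alter it. The sign of the median itself turned, to -0.15, when the arrays were scaled on housekeeping genes.

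**Figure D1:**
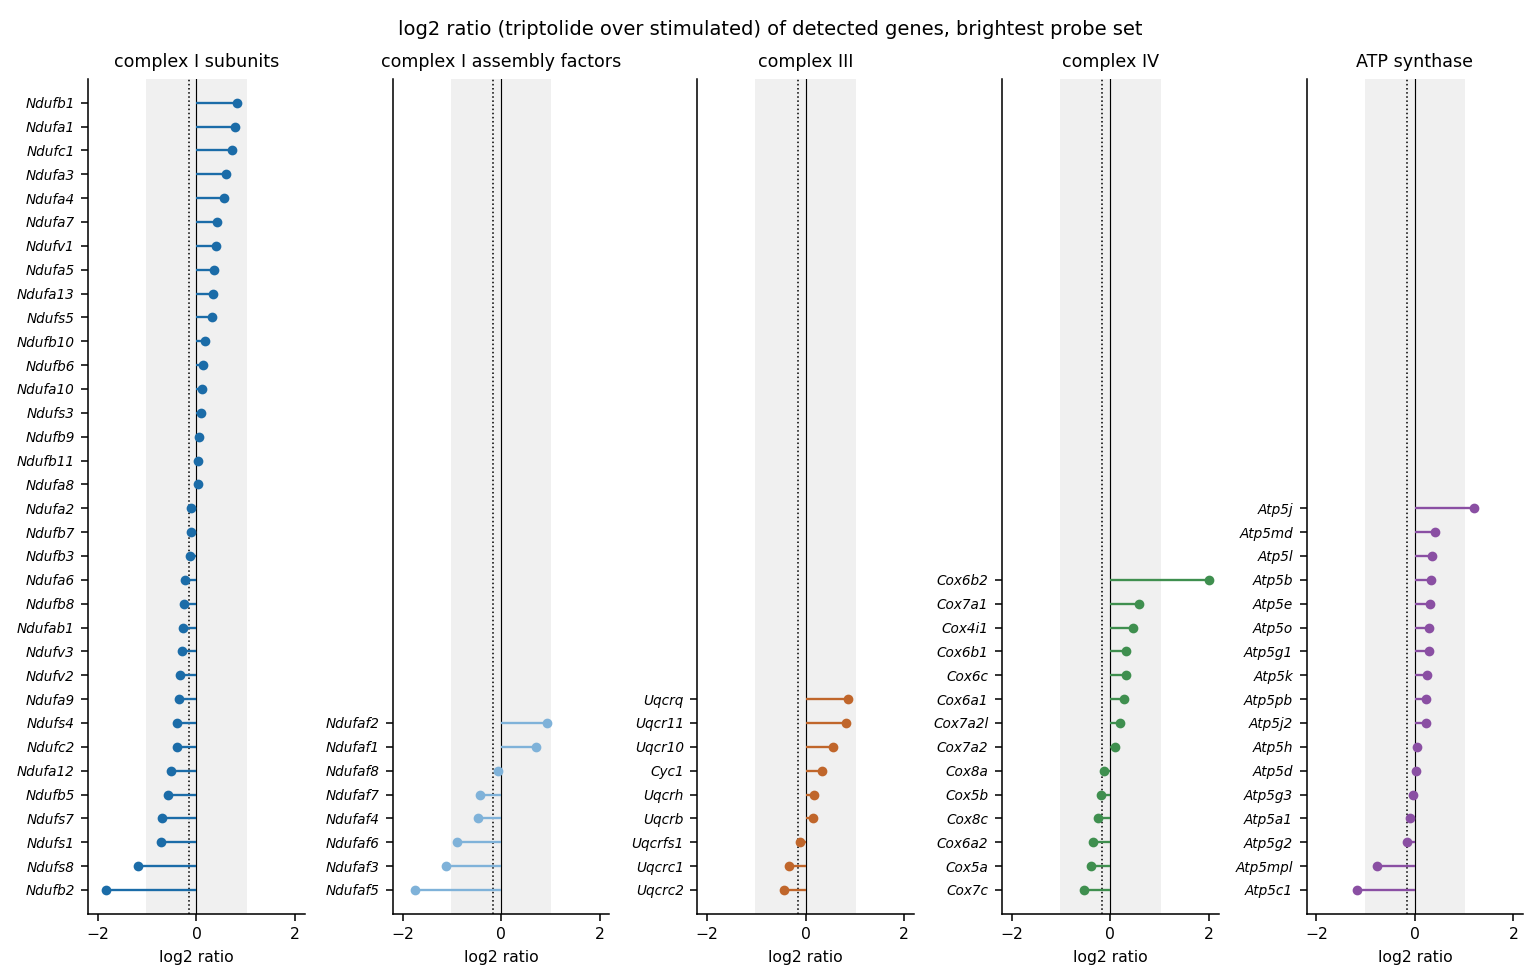
Log2 ratio (triptolide over stimulated, horizontal axis) of each of the 82 detected genes on its strongest probe set, 1 panel per complex, sorted by ratio. The shaded band marks 2-fold either way and the dotted line the median of all detected genes at -0.16: 75 genes lie inside the band, and most ATP synthase genes lie to the right of the dotted line.

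By complex the medians were -0.04 for 34 detected complex I subunits, 0.16 for 9 complex III genes, 0.15 for 14 complex IV genes and 0.22 for 17 ATP synthase genes. The 8 Ndufaf assembly factors had the lowest median, -0.45, although among genes averaging 4 times the floor or more it was -0.07 over 5 of them, against -0.11 for complex I subunits. Set against the median of all detected genes, these were differences of 0.12, 0.32, 0.31, 0.38 and -0.29. The median of complex I subunits had no settled sign, being 0.05 with equal array medians and -0.23 with scaling on housekeeping genes. Under that housekeeping scaling the medians of complexes III and IV themselves were below 0 (-0.04 and -0.05) and that of ATP synthase was 0.03.

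Probe sets of the same gene gave a view of technical precision, though not of variation between cultures. They may not be independent readings, since all were read on the same 2 arrays. Of the 171 probe sets of the members, 45 are of a type that can match several transcripts. Whether paired probe sets share sequence was not tested. In the 40 members with at least 2 measured probe sets, the SD between the strongest pair was 0.24 per probe set on the log2 scale, against 0.49 in 3733 genes of the whole array. Both probe sets of the pair had the same sign in 33 of the 40, and in 2688 of the 3733. Detected members had stronger signals, with a median mean signal of 4964 against 457 for all detected genes. The part of signal strength in the smaller SD was not tested. Over all 171 probe sets of the members, 153 were detected, of which 4 were higher and 12 lower by 2-fold or more. Across the array, these shares were 5.69% and 12.8% of detected probe sets.

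**Figure D2:**
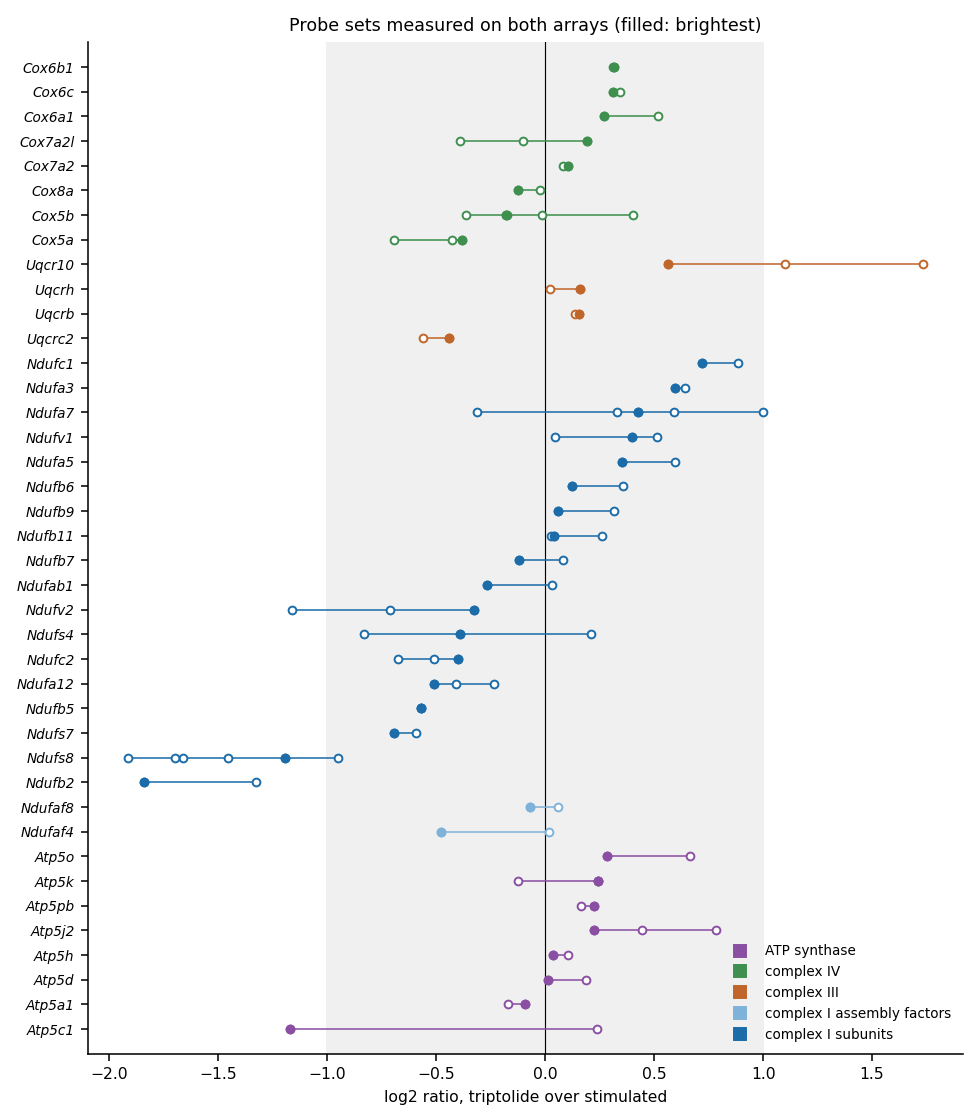
Log2 ratios (horizontal axis) of all probe sets measured on both arrays, for the 40 genes with at least 2 of them; filled points are the strongest probe set of a gene, open points the others, and colours mark complexes. The 6 probe sets of Ndufs8 lie between -1.91 and -0.95, while the 2 of Atp5c1 lie at -1.17 and 0.24.

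Complex I takes electrons from NADH through a flavin and a chain of iron-sulfur clusters to ubiquinone. Of its 34 detected subunit genes, 17 had a log2 ratio above 0 (50%, against 39.8% of all detected genes) and 17 below. None was at least 2-fold higher, and Ndufs8 and Ndufb2 were at least 2-fold lower. Ndufs8, a core subunit with iron-sulfur clusters on the path to ubiquinone, had a signal of 2291 in triptolide cells and of 5234 in stimulated cells (2.28-fold lower). Its 6 probe sets were all measured and all lower. The difference was widest on the probe set with 436 in triptolide cells and 1643 in stimulated cells (-1.91), and narrowest on the dimmest, with 170 in triptolide cells and 328 in stimulated cells (-0.95).

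Ndufb2, a small accessory subunit of the membrane arm, had 710 in triptolide cells and 2547 in stimulated cells (3.59-fold lower). A second probe set read 757 with triptolide against 1901 without, a log2 ratio of -1.33. Its remaining probe set was dim, and under the floor with triptolide (97.3 with triptolide and 150 without). Ndufb2 and Ndufs8 were the only complex I subunits beyond 2-fold, and both stayed beyond it in all 10 alternatives that gave them a value.

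The core subunits were examined apart, a division made after the values were seen. Of 6 with probe sets of their own, 4 had negative ratios, and their median was -0.51 against 0.04 for 28 accessory subunits. Besides Ndufs8, Ndufs1, which carries iron-sulfur clusters of the NADH-oxidising arm, had 1257 in triptolide cells and 2074 in stimulated cells (log2 ratio -0.72). Ndufs7, which holds the last cluster before ubiquinone, had 2004 with triptolide and 3244 without (-0.70, and -0.59 on its other probe set). For the iron-sulfur subunit Ndufv2 the 3 probe sets gave -0.33, -0.71 and -1.16. The remaining core genes did not share this direction: Ndufv1, which binds NADH and the flavin, had ratios from 0.04 to 0.51 on 3 probe sets, and Ndufs3 had 0.08. Each of these differences other than that of Ndufs8 stayed within 2-fold on the strongest probe set.

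At the upper end stood small accessory subunits of the membrane arm. Ndufb1 had 522 in triptolide cells and 294 in stimulated cells (log2 ratio 0.83). Ndufa1 had 15969 with triptolide and 9307 without (0.78). For Ndufc1 both probe sets were higher, one with 5726 with triptolide and 3477 without (0.72), the other with 3767 with triptolide and 2042 without (0.88). Ndufa3 gave 0.60 and 0.64 on its 2 measured probe sets, with a dim one at 84.2 with triptolide and 225.8 without. Within the same arm, however, Ndufb5 (-0.57 on both probe sets) and Ndufc2 (-0.67 to -0.40 on 3) had negative ratios, as Ndufb2 did.

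For 2 accessory subunits the probe sets lay more than 1 apart on the log2 scale, so no direction is given. Ndufa7, of the matrix arm, had 11203 in triptolide cells and 8346 in stimulated cells on its strongest probe set, and its 5 probe sets ranged from -0.31 to 0.999. Ndufs4, an accessory subunit whose loss causes Leigh syndrome in humans, had 2555 with triptolide and 3350 without, and 3 measured probe sets from -0.83 to 0.21. Ndufab1, the mitochondrial acyl carrier protein, had -0.27 on its strongest probe set. The gene Ndufa4, placed here by its symbol although its protein is now assigned to complex IV, had 9360 with triptolide and 6372 without (0.55). Its paralogue Ndufa4l2, known as a hypoxia-induced gene, lay under the floor on both arrays (112.3 with triptolide and 115.4 without).

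Ndufb4 also lay under the floor on the probe set annotated to it alone (96.6 with triptolide and 51.8 without). The 2 probe sets it shares with the copies Ndufb4b and Ndufb4c were left out by the rule and read 5757 and 3618 with triptolide against 3087 and 3003 without. In all, 10 probe sets annotated to a gene of these families together with another gene, mostly a copy or pseudogene, were left out, of which 7 were detected. Ndufa11 and Ndufs6 had only such probe sets and so are not among the 87 genes. Their shared probe sets had log2 ratios of 0.53 for Ndufa11 (2388 with triptolide and 1650 without, the other under the floor) and 0.21 for Ndufs6 (2718 with triptolide and 2345 without).

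Assembly factors of complex I help to build and modify its modules and are not part of the finished enzyme. Of the 8 Ndufaf genes 2 were at least 2-fold lower (25%), against 12.5% of all detected genes, and with 8 genes each one moves this share widely. Ndufaf5, which in human cells hydroxylates the Ndufs7 protein during assembly, had 188 in triptolide cells and 631 in stimulated cells (3.35-fold lower, 1 probe set). Ndufaf3, which acts early with Ndufaf4, had 256 with triptolide and 556 without (2.17-fold lower, 1 probe set), and lay within 2-fold when both arrays were given the same median (-0.99) or the same distribution (-0.90). Its partner Ndufaf4 had -0.48 on the stronger and 0.02 on the dimmer probe set.

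Ndufaf6 had 226 in triptolide cells and 423 in stimulated cells (-0.90), and Ndufaf7, a methyltransferase that acts during assembly, had -0.43. In the other direction, Ndufaf2, a paralogue of the subunit Ndufa12, had 1014 with triptolide and 532 without (0.93). Ndufaf1, of the membrane arm assembly complex, had 1315 with triptolide and 808 without (0.70). Ndufaf8, which works with Ndufaf5, had -0.07 and 0.06 on its 2 probe sets. The group thus spread over both directions, with an SD of 0.90 between genes against 0.56 for the complex I subunits.

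Complex III moves electrons from ubiquinol to cytochrome c. All 9 of its genes were measured and all lay within 2-fold, 6 above 0 (66.7%, against 39.8% of all detected genes) and 3 below. The 3 with negative ratios were Uqcrc2 and Uqcrc1, the large core proteins, and Uqcrfs1, the Rieske iron-sulfur protein. Uqcrc2 had 6640 in triptolide cells and 9015 in stimulated cells (-0.44, and -0.56 on its second probe set). Uqcrc1 had 2613 with triptolide and 3296 without (-0.33), and Uqcrfs1 had -0.11. Cyc1, which encodes the haem protein cytochrome c1, had 5994 with triptolide and 4753 without (0.33).

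The small subunits of complex III had positive ratios on their strongest probe sets, a grouping made after the values were seen. With scaling on housekeeping genes Uqcrh and Uqcrb turned to -0.04, and Uqcrq depended on its probe set. Uqcrq had 7586 in triptolide cells and 4180 in stimulated cells (0.86) on a probe set of a type that can match several transcripts. Its 3 other probe sets were dim, and 1 of them went the other way, with 54.6 with triptolide and 178.2 without. Without probe sets that can match several transcripts that one stood for the gene, with a log2 ratio of -0.59 (its triptolide signal set to the floor), so the direction of Uqcrq rests on 1 probe set. Uqcr11 had 4945 with triptolide and 2792 without (0.82, 1 probe set). Uqcr10 had 5521 with triptolide and 3734 without on its strongest probe set (0.56) and was at least 2-fold higher on both others. These had 4262 with triptolide and 1989 without (1.10), and 3820 with triptolide and 1147 without (1.74). These 3 genes stood above Uqcrh and Uqcrb, which had 0.16 and 0.15 with both probe sets of each above 0.

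**Figure D3:**
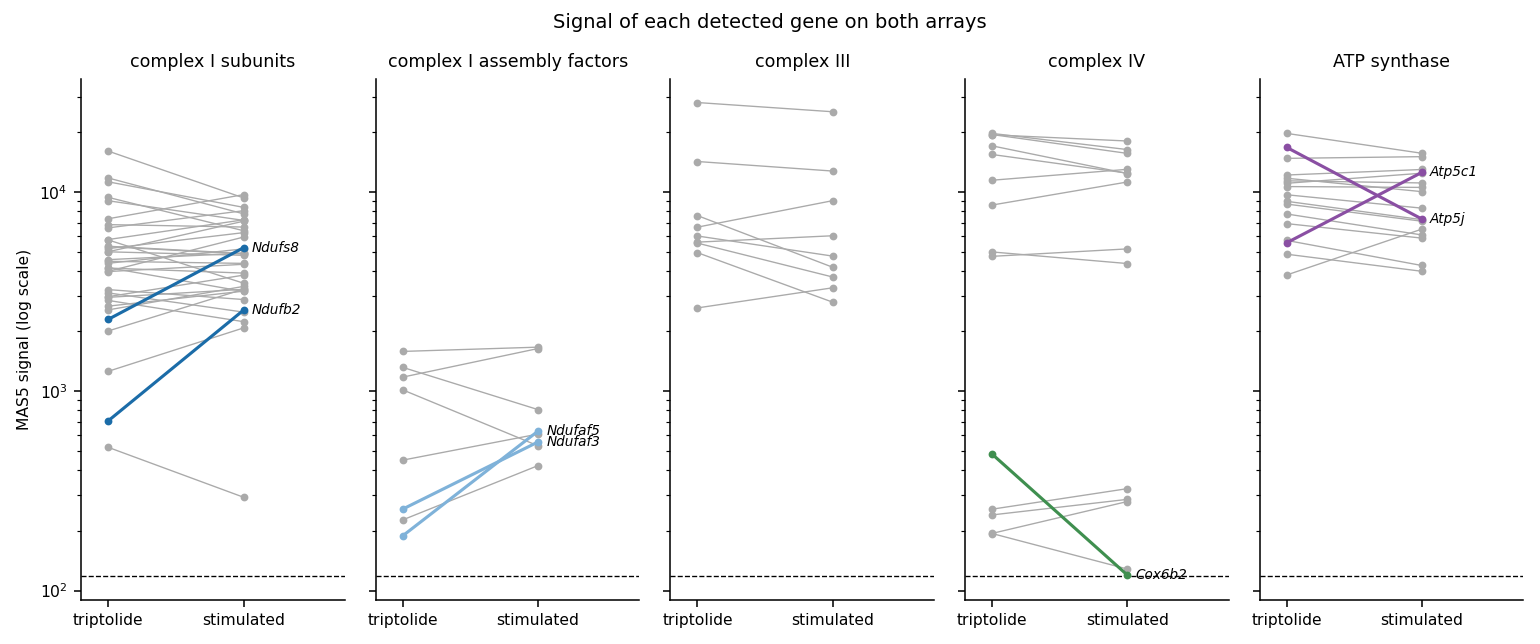
MAS5 signal (log axis) of each detected gene with triptolide (left) and without (right), 1 panel per complex, with genes at least 2-fold apart in colour and the background floor of 118 dashed. In complex III no line is coloured, and in complex IV a lower tier of 5 genes, Cox6b2 among them, lies near the floor.

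Complex IV, cytochrome c oxidase, reduces oxygen to water. Its nuclear subunits regulate a catalytic core made in mitochondria, and several come as isoforms with tissue preferences. Of 17 genes 14 were detected, 8 with ratios above 0 (57.1%, against 39.8% of all detected genes) and 6 below. Among the isoforms used in most tissues, Cox4i1 had 16975 in triptolide cells and 12335 in stimulated cells (0.46). Cox6b1 had 19343 with triptolide and 15562 without (0.31 on both probe sets), and Cox6c had 0.31 and 0.34. Cox6a1 had 0.27 on its strongest probe set, with 19601 with triptolide and 16262 without, and 0.52 on the other.

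The subunits closest to 0 were Cox7a2 (0.10), with 19282 with triptolide and 17951 without, and Cox8a (-0.12). Cox5a had 8569 in triptolide cells and 11180 in stimulated cells (-0.38), with 3 probe sets that were all lower. Cox5b, with 11412 with triptolide and 12944 without (-0.18), had 4 of 5 measured probe sets below 0. The supercomplex factor gene Cox7a2l, grouped here by its symbol, had 0.19 on its strongest probe set but -0.10 and -0.39 on the others. Cox7c was dim on both its probe sets, with 193 in triptolide cells and 279 in stimulated cells (-0.53) on the stronger.

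Isoforms known from particular tissues, such as muscle, testis or, for Cox4i2, lung, had low signals. Cox4i2, Cox7b2 and Cox8b were under the floor on both arrays, so no ratio is given. The muscle isoform Cox6a2 had 256 with triptolide and 324 without (-0.34), its second probe set being under the floor, and Cox7a1 had 193 with triptolide and 128 without (0.59). Cox8c, of testis, had 239 with triptolide and 287 without (-0.26). Cox6b2, a testis isoform, had 483 in triptolide cells and 120 in stimulated cells, 4.04-fold higher and the highest ratio among the members. It has 1 probe set, its stimulated signal lay just above the floor, and with 2 times the floor the log2 ratio was 1.03. Of 6 muscle and heart markers, 3 were detected, each on 1 array. Of these, Tnnt2 had 1743 with triptolide and 25.4 without, Myh7 18.4 with triptolide and 177.3 without, and Ckm 31.1 with triptolide and 125.9 without. The part of other tissues in the isoform signals was not tested.

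ATP synthase turns the proton gradient into ATP with a catalytic head, a rotor and a peripheral stalk. All 17 genes were measured, 12 with ratios above 0 (70.6%, against 39.8% of all detected genes) and 5 below. Above the median of all detected genes lay 14 (82.4%, against 50% of all detected genes). In the catalytic head, the beta subunit gene Atp5b had 19603 in triptolide cells and 15582 in stimulated cells (0.33), and the alpha subunit gene Atp5a1 had 12120 with triptolide and 12920 without (-0.09). Atp5d and Atp5e, the delta and epsilon subunits of the central stalk, had 0.01 and 0.31. Their partner Atp5c1, the gamma subunit that turns inside the head, had 5540 with triptolide and 12489 without (2.25-fold lower). Its second probe set, far dimmer, went the other way (258 with triptolide and 219 without, 0.24), so its direction rests on 1 probe set, of a type that can match several transcripts.

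Atp5j, which encodes a coupling factor in the peripheral stalk, had 16683 in triptolide cells and 7296 in stimulated cells (2.29-fold higher). It has 1 probe set, and scaling on housekeeping genes put its log2 ratio at 0.999, just inside the limit. Other stalk genes did not come close: Atp5o, whose protein ties the stalk to the head, had 0.29 and 0.67, Atp5pb had 0.22 and 0.17, and Atp5h had 0.04 and 0.11. The genes Atp5g1, Atp5g2 and Atp5g3 encode precursors of the same mature protein of the rotor ring. Their log2 ratios were 0.28 (4858 with triptolide and 3989 without), -0.17 (11017 with triptolide and 12377 without) and -0.03 (14689 with triptolide and 14983 without).

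Small membrane subunits had ratios between 0.22 and 0.42 on the strongest probe sets of Atp5j2, Atp5k, Atp5l and Atp5md. Of these, Atp5md had 5698 with triptolide and 4264 without, and Atp5l 7731 with triptolide and 6069 without. The other probe sets of Atp5j2 had 0.45 and 0.79. Those of Atp5k had 0.24 and -0.13, the latter with 2844 with triptolide and 3103 without. By strongest probe set the exception was Atp5mpl, a small proteolipid of the enzyme. It had 3821 in triptolide cells and 6490 in stimulated cells (-0.76, 1 probe set).

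The promoter of Atp5j is shown because it is shared: RefSeq (GRCm38.p6) lists Gabpa, the gene for the DNA-binding part of GABP, as the next gene, read in the opposite direction. The stretch between a listed start of Atp5j and that of Gabpa has 147 bases, chr16:84834977-84835123, printed from the Atp5j (minus) strand. Capitals mark matches on either strand to an NRF1-type core (CGCANGCG), an ETS core as bound by GABP (CCGGAAG) and a YY1-type core (AAGATGGCG).
Atp5j and Gabpa: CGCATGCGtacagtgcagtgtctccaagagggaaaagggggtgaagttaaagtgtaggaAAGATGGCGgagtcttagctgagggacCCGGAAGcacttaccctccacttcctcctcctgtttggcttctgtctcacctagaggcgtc
All 3 cores occur in this stretch. On the arrays, the neighbours had different ratios: Atp5j had a log2 ratio of 1.19, while Gabpa had 639 with triptolide and 965 without (-0.60) and 0.05 on its second probe set.

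The 100 bases before the start are given for the other members at least 2-fold apart, with the same capitals, to set beside that shared promoter. Ndufb2 lies on the plus strand at chr6:39592465-39592564, Ndufaf5 on the plus strand at chr2:140170546-140170645, Ndufs8 on the minus strand at chr19:3912775-3912874, Atp5c1 on the minus strand at chr2:10080511-10080610, Ndufaf3 on the minus strand at chr9:108567437-108567536 and Cox6b2 on the minus strand at chr7:4753095-4753194.
Ndufb2: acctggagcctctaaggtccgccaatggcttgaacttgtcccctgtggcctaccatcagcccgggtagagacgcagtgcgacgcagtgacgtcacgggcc
Ndufaf5: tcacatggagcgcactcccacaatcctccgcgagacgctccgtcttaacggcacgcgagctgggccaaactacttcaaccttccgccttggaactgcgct
Ndufs8: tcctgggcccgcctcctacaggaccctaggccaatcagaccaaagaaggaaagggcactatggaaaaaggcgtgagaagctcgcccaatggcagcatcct
Atp5c1: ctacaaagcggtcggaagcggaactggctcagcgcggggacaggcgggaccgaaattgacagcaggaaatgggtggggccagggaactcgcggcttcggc
Ndufaf3: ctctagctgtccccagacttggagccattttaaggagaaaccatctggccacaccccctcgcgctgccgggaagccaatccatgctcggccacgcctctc
Cox6b2: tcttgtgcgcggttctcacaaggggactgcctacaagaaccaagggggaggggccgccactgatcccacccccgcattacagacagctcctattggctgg
None of the 3 cores occurs in these 6 stretches, so they hold no capitals. They are shorter than the 147 bases printed for Atp5j, whose NRF1-type core lies outside the 100 bases before its start. The presence of cores is therefore not compared over equal lengths. In the full windows of 300 bases, which run 50 bases past the start, Ndufaf5 and Atp5c1 hold the NRF1-type core and Ndufs8 the ETS core.

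Promoter windows were found for 71 of the 87 members. The NRF1-type core was in 25 of them (35.2%), against 19.9% of the 8907 detected genes with a window and 9.22% of all 27025 genes. For the ETS core the figures were 17 members (23.9%), 20.8% and 9.93%, and for the YY1-type core 7 members (9.86%), 3.82% and 1.64%. Median log2 ratios of detected members with and without each core were 0.20 and 0.06 for NRF1, 0.24 and 0.01 for ETS and -0.07 and 0.10 for YY1. A match of letters describes a window and does not show binding.

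Other genes of the pathway were compared from fixed lists. All 8 genes of succinate dehydrogenase (complex II) and its assembly were measured, and none was at least 2-fold apart on its strongest probe set. They had a median of 0.32, from Sdhaf1 (2418 with triptolide and 1535 without, 0.66) to Sdhaf3 (335 with triptolide and 554 without, -0.73). On other measured probe sets Sdha reached 1.17, beyond 2-fold, and Sdhc 0.87. Cycs, which encodes cytochrome c, had 15971 with triptolide and 10291 without (0.63, with 3 measured probe sets from 0.63 to 1.003). Of the adenine nucleotide carriers that export ATP, Slc25a4 was 2.53-fold lower, with 2456 in triptolide cells and 6225 in stimulated cells and 3 measured probe sets between -1.40 and -1.34. Slc25a5 had 11314 with triptolide and 17794 without (-0.65), with all 8 probe sets below 0.

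Assembly factors of complexes III to V spread more widely than the subunits they serve. Of 27 detected genes, 2 were higher and 7 lower by 2-fold or more (the lower ones being 25.9%, against 12.5% of all detected genes), with a median of 0.04. The lower ones included Bcs1l, which inserts the Rieske protein into complex III, with 198 in triptolide cells and 961 in stimulated cells (4.85-fold). Uqcc2, a complex III assembly factor, had 806 with triptolide and 3565 without (4.43-fold, and -0.78 on its other probe set). Sco2, a copper chaperone of complex IV, had 211 with triptolide and 916 without (4.34-fold), and Atpaf1, a chaperone of the ATP synthase head, had 230 with triptolide and 713 without (3.10-fold). Higher were Cox19, with 1304 with triptolide and 516 without (2.53-fold), and Cox18, with 1524 with triptolide and 644 without (2.37-fold).

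Among 10 detected complex I assembly factors with other names, Foxred1 (2.25-fold) and Lyrm2 (2.16-fold) were higher and Ecsit was lower, with 567 in triptolide cells and 1643 in stimulated cells (2.90-fold). Pooling these lists with the Ndufaf genes gave 45 detected assembly factors, of which 4 were higher and 10 lower by 2-fold or more and 68.9% lay within 2-fold. Of all detected genes 5.63% were higher, 12.5% lower and 81.9% within 2-fold. For the 74 detected members without Ndufaf genes the share within 2-fold was 93.2%. The SD between genes was 0.99 for the assembly factors and 0.55 for those 74 genes. Assembly factors had weaker signals, with a median mean signal of 629 for Ndufaf genes, 820 for factors of complexes III to V and 549 for the others, against 5484 for the 74 genes. The part of signal strength in the wider spread was not tested.

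**Figure D4:**
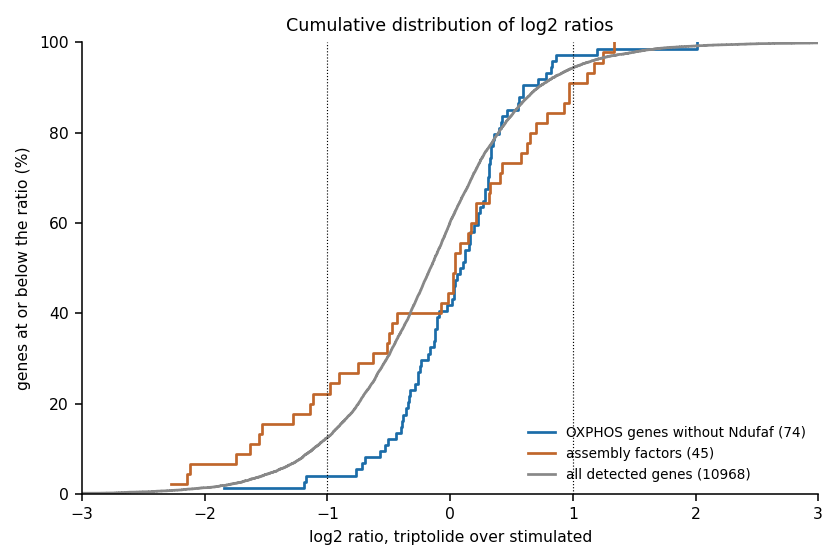
Share of genes (vertical axis, percent) at or below each log2 ratio (horizontal axis), for the 74 detected members without Ndufaf genes, the 45 detected assembly factors and all 10968 detected genes; dotted lines mark 2-fold. The curve of the 74 genes is steepest, with 93.2% between the dotted lines, and that of the assembly factors is the widest.

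Of 18 detected regulators of mitochondrial gene expression, 14 had ratios below 0, as did 6603 of the 10968 detected genes, and the median was -0.43. Above the median of all detected genes lay 8 of them (44.4%). By 2-fold or more 1 was higher and 1 lower (5.56% each), against 5.63% and 12.5% of all detected genes. In this median Ppargc1a and Ppargc1b, each above the floor on 1 array, stand at their bounds. Nrf1, the factor named above, had 327 in triptolide cells and 733 in stimulated cells (2.25-fold lower), but its 3 measured probe sets reached 0.80. Yy1 (-0.43) and Gabpb1 (-0.09) likewise had measured probe sets up to 1.78 and 1.37. Those of Gabpa, Polg and Polrmt reached 0.05, 0.10 and 0.03. The number of regulators below 0 therefore depends on the probe set chosen. Polg2, the accessory subunit of the mitochondrial DNA polymerase, had 1182 with triptolide and 418 without (2.83-fold higher, 1 probe set). The coactivator gene Ppargc1a had 143.9 with triptolide and 11.1 without, and its paralogue Ppargc1b had 77.4 with triptolide and 219 without. Transcripts of the mitochondrial genome were not analysed here.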

How the data were processed

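Total RNA of 2 samples of mouse primary T cells was hybridised to Affymetrix arrays. The authors deposited a linear signal intensity for each probe set, made with MAS5 per the submitters' processing notes, with no version or settings stated. Of 45037 probe sets, 34945 had 1 gene symbol in the platform annotation and 932 several, and 34741 were updated through Entrez numbers (RefSeq, GRCm38.p6). Both arrays had a 2% trimmed mean of 2000 over the 100 probe sets that open the table, none of them a member, and median signals of 87.6 with triptolide and 95.5 without.

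The floor was the higher 95th percentile of 87 chemosensory receptor probe sets (118 with triptolide and 107 without); lower signals were set to it before taking log2. Named genes were, per complex, the 3 highest, 3 lowest and 2 strongest, all members 2-fold apart, those with probe sets over 1 apart and isoform pairs; others were added after their values were seen. Members and lists were chosen with earlier results of these data known. Python 3.11.15, pandas 2.3.3 and numpy 2.4.6 were used, and calculations were tested on simulated data. With 1 array per condition no p-value or SD over replicates exists. Alternatives were 3 scalings, 2 floors, a pseudocount of 32, the median over probe sets, leaving out probe sets that can match several transcripts, genes at 4 times the floor, a fold of 1.5 and platform symbols.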

Additional observations from a re-analysis of the deposited data

How the results depend on the processing

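Of 430 log2 ratios of 44 named genes under the alternatives, 416 moved by less than 0.24, the SD between probe sets. A further 13 moved by more, as did 1 of Atp5c1, which turned from 2-fold lower to above 0. Many of the 416 could not have moved further. Equal medians and housekeeping scaling shift all genes above the floor alike, by less than 0.24. Platform symbols leave the ratios unchanged. The count is therefore no measure of how firm the ratios are. Without probe sets that can match several transcripts, Atp5c1 turned to 0.24 and Uqcrq to -0.59. With the median over probe sets, Atp5g2 turned from negative to 0.36 and Cox7a2l from positive to -0.0996. Under scaling, signs also turned for Atp5g3, Ndufaf8, Uqcrfs1 and Cox8a (equal medians), Atp5g3 and Ndufaf8 (quantile) and Uqcrb, Uqcrh, Cox7a2 and Cox7a2l (housekeeping). Of the 7 genes at least 2-fold apart, 4 (Ndufb2, Ndufs8, Ndufaf5 and Cox6b2) stayed so in every alternative that gave a value.

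Scaling moved the medians together. With equal array medians they were 0.16 for all members, 0.0484 for complex I, -0.33 for Ndufaf genes, 0.28 for complex III, 0.27 for complex IV, 0.35 for ATP synthase and -0.0476 for all detected genes. With quantile normalization they were 0.0323 for complex I, -0.25 for Ndufaf genes, 0.30, 0.26 and 0.33 for complexes III, IV and ATP synthase and 0.0059 for all genes, with 4 members at least 2-fold higher. Scaled on housekeeping genes they were -0.15 for all members, -0.23 for complex I, -0.65 for Ndufaf genes, -0.0355, -0.0462 and 0.0289 for complexes III, IV and ATP synthase and -0.33 for all genes, with 1 member at least 2-fold higher. Against the median of all genes, complexes I, III, IV and ATP synthase stayed above it in all 10 alternatives with a median. Ndufaf genes stayed below it in all except that of genes at 4 times the floor. Scaling an array by a constant can hardly alter such a difference, and platform symbols left it unchanged, so not all 10 could have moved it. Among genes at 4 times the floor the Ndufaf median was -0.0710 over 5 genes and that of complex I -0.1073. In that setting 1 member was at least 2-fold higher and 3 lower. With the median over probe sets, complex I had 0.0372, Ndufaf genes -0.33 and complex IV 0.0088. Without probe sets that can match several transcripts, complex I had 0.0336 and complex III 0.0214. At 1.5-fold, 11 members were higher and 9 lower, against 13.4% and 26.9% of all detected genes. No paired analysis was possible because each condition has 1 array.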
